A study of Saccharomyces cerevisiae with 4 samples.

Results

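The genes described here are 41 enzymes of amino acid biosynthesis in budding yeast (Saccharomyces cerevisiae) and GCN4, the transcriptional activator that controls many of them. They were taken as the rows of the deposited value table that carry the 42 systematic names of a list of histidine, arginine, lysine, leucine, isoleucine-valine, aromatic, threonine, serine and asparagine pathway genes. All 42 were among the 6207 reading frames in the table. A value on all 4 arrays, which the test required, was held by 40 of them and by 4788 reading frames in all.

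An slt2 mutant growing exponentially on rich glucose medium (YEPD) was compared with and without zymolyase 100T, a mixture of enzymes that attack wall glucan. Slt2 is the mitogen-activated protein kinase of the cell wall integrity pathway, so the treated and the untreated cells share that mutation, and no wild type group was analysed here. Each culture was split, with 5 units per ml of zymolyase given to one part, and total RNA was collected at 3 h. RNA of 2 cultures was hybridised to 4 two-colour arrays with swapped dyes. RNA of zymolyase-treated cells was the Cy3 sample on arrays 1 and 3, and the Cy5 sample on arrays 2 and 4. No source used here gives the strain background, and with it any amino acid auxotrophy.

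Yeast makes nearly all of its amino acids by dedicated enzyme pathways, most of them repressed or feedback-inhibited by their end products. When amino acids run short, uncharged transfer RNA activates the kinase Gcn2, and the reduced supply of initiation complexes lets ribosomes reach the GCN4 coding sequence past short upstream reading frames. Gcn4 protein then raises transcription of enzyme genes in many pathways at once, a response called general amino acid control. Since Gcn4 is set mainly by its translation and its breakdown, the GCN4 transcript level alone is not a measure of its activity.

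The values are log ratios between the channels of an array, with a base that was not stated and was taken as 2. The dye in the numerator is not stated either. Between arrays of opposite dye orientation Pearson's r of the deposited values was -0.60 to -0.30 over 4788 genes, and the signs of arrays 2 and 4 were reversed for that reason. A positive value is on the side of the stress gene HSP12 (2.63 ± 0.58, SD, n = 4) and a negative one on the side of the wall mannoprotein gene TIP1 (-1.17 ± 0.45). Which of these sides is higher with zymolyase stays unknown: the HSP12 side if the ratio is Cy3 over Cy5, the TIP1 side if it is Cy5 over Cy3. SLT2 had a value on 0 of the arrays and could not check the labels. Array 3 has a treated channel labelled as wild type, against its title, so results are also given without that array. In bulk RNA, fewer cells with a transcript and less of it per cell cannot be told apart.

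The biosynthesis genes and GCN4 stayed close to 0. Of the 40 tested, 0 changed at an adjusted p under 0.05 in limma, over 4 arrays of 2 cultures. Of all tested genes 4.55% changed, 4.34% toward HSP12 and 0.209% toward TIP1. At an unadjusted p under 0.05 the count was again 0, against 11.5% of all tested genes. The means ran from -0.37 for ARO2 to 0.40 for ARO1, and the smallest adjusted p was 0.590. The smallest size called among all genes was 0.749. The median of the 40 means was -0.08, near the median of -0.06 over all tested genes, and it was -0.07 without array 3, where 0 were called as well.

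The 95% intervals of the 40 genes, with a standard error of 0.244 each, all included 0. All lay within a log2 size of 1, the farthest end being 0.876 for ARO1. A 2-fold change, with the base taken as 2, lay outside these intervals. Their standard error is shared among genes, since the model gave every gene the same variance when arrays 1 and 2 and arrays 3 and 4 were averaged. The intervals thus leave out a gene's own scatter. For the most scattered genes, such as THR1 (SD 0.61) and ARO1 (SD 0.55), a 2-fold change thus stays possible, although it lies outside their intervals. The members also scattered less than other genes. The median SD over the arrays was 0.223 for them and 0.290 over all tested genes, and the median size of the mean was 0.156 and 0.193. A size of at least 1 was reached by 0 of the members and by 2.86% of all tested genes.

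**Figure D1:**
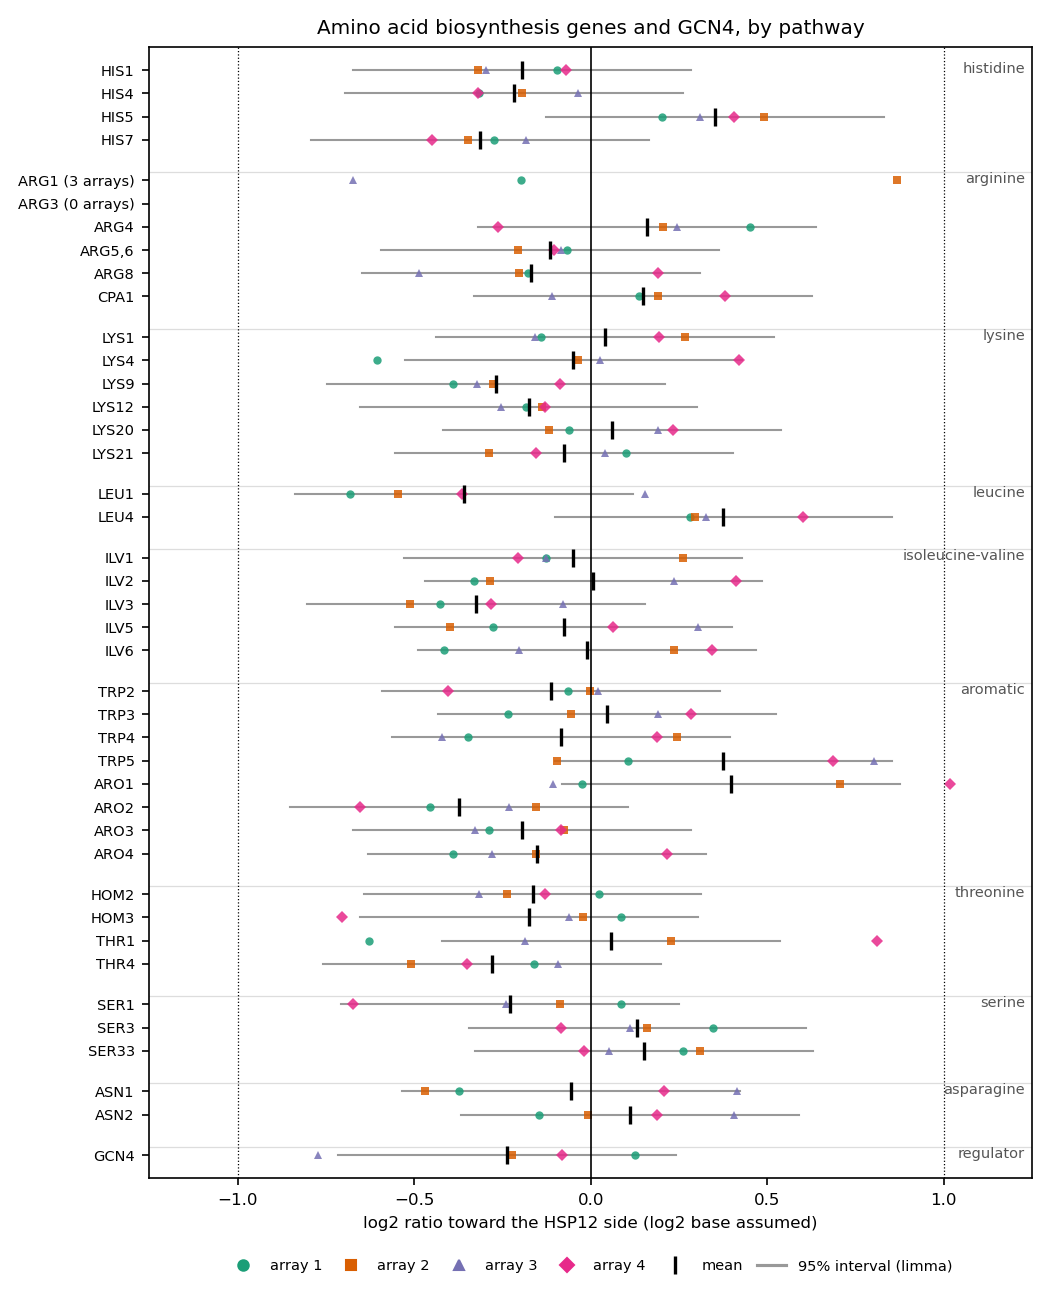
Log2 ratio toward the HSP12 side (x axis) of each biosynthesis gene and GCN4 (rows, grouped by pathway). Coloured symbols are arrays 1 to 4, black ticks the mean and grey lines the 95% limma interval, and dotted lines mark a log2 size of 1. All intervals include 0, 39 of the 40 tested genes are drawn, ARG1 has 3 arrays and ARG3 has 0.

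**Figure D2:**
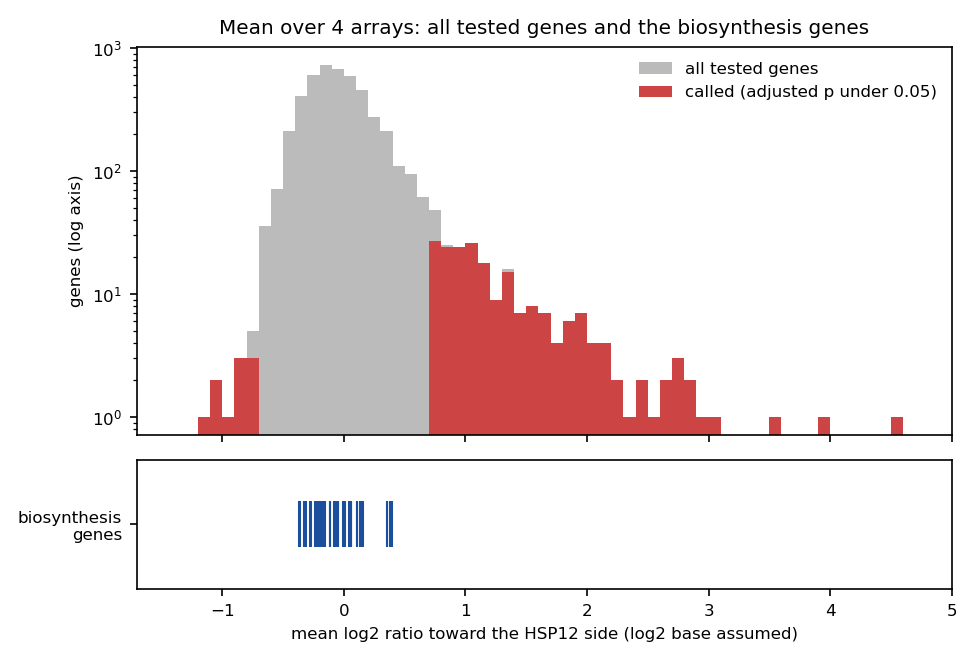
Number of genes (log axis) by mean log2 ratio toward the HSP12 side for the 4788 tested genes, with called genes in red, above the means of the 40 biosynthesis genes (blue ticks, -0.37 to 0.40). The ticks lie under the bulk of all genes and inside the smallest called size of 0.749.

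GCN4 (YEL009C) was not called. Its values were 0.13, -0.22, -0.77 and -0.08 on arrays 1 to 4, a mean of -0.24 ± 0.38 (SD, n = 4; adjusted p = 0.813, limma). The negative mean came mostly from array 3, and it was -0.06 without that array. Among 16 tested genes that act on Gcn4 translation or turnover, 1 changed, or 6.25%, next to 4.55% of all tested genes. That gene was PCL5 (YHR071W), which encodes a cyclin of the kinase Pho85 that marks Gcn4 for breakdown and which is known as a Gcn4 target.

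PCL5 had 0.51, 0.76, 1.89 and 1.63 on arrays 1 to 4. All 4 values were on the HSP12 side, those of arrays 3 and 4 farther out than those of arrays 1 and 2. The mean was 1.20 ± 0.67 (SD, n = 4), or 2.29-fold (adjusted p = 6.3e-05, limma), and 0.96 without array 3 (adjusted p = 0.00138). The call was lost without array 1 (mean 1.43, adjusted p = 0.0802) and without array 2 (mean 1.34, adjusted p = 0.0603), although both means were larger. It was also lost once the trend with coding length was removed from each array (adjusted p = 0.138).

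The other genes of Gcn4 control stayed without a call. GCD10, needed for initiator transfer RNA modification, had a mean of -0.37 ± 0.26 and GCN20, a partner of Gcn1 in Gcn2 activation, 0.33 ± 0.52. GCN20 showed its HSP12 side values on arrays 3 and 4 (0.77 and 0.80) and not on arrays 1 and 2 (-0.06 and -0.17). The median over the 16 genes was -0.07, and 9 of them lay on the TIP1 side.

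Sides were often shared across arrays without a call. On all 4 arrays 12 of the 40 members kept 1 side, or 30%, next to 30.3% of all tested genes. HIS5 and LEU4 did so on the HSP12 side (11.8% of all tested genes). HIS1, HIS4, HIS7, ARG5,6, LYS9, LYS12, ILV3, ARO2, ARO3 and THR4 did so on the TIP1 side (18.5% of all tested genes). Of the members 5% thus kept the HSP12 side and 25% the TIP1 side, and the combined share was near that of all tested genes. With arrays 1 and 4, and arrays 2 and 3, taken as cultures without the other pairing, limma called 8 of the 40, or 20%, against 29.6% of all tested genes. Of the 8, HIS5, LEU4, TRP5 and ARO1 were on the HSP12 side (14.5% of all tested genes), and HIS7, LEU1, ILV3 and ARO2 were opposite (15%).

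Among the pathways of the set, the histidine members gave the most even values across arrays (median SD 0.128). The histidine genes HIS2, HIS3 and HIS6, outside the set, had SDs of 0.41, 0.31 and 0.31. HIS2 and HIS6 are named after their values were seen. HIS7 (YBR248C), imidazole glycerol phosphate synthase, had -0.28, -0.35, -0.18 and -0.45 on arrays 1 to 4. HIS1 (YER055C), the first enzyme of the pathway, had -0.09, -0.32, -0.30 and -0.07. HIS4 (YCL030C), a multifunctional enzyme, had -0.32, -0.19, -0.04 and -0.32. HIS7, HIS1 and HIS4 lay on the TIP1 side on every array, with means of -0.31 ± 0.11, -0.20 ± 0.13 and -0.22 ± 0.13 (SD, n = 4). HIS5 (YIL116W), histidinol-phosphate aminotransferase, lay opposite, with 0.20, 0.49, 0.31 and 0.41. Its mean was 0.35 ± 0.12, 1.28-fold (adjusted p = 0.657, limma), and that of HIS7 was 1.24-fold (adjusted p = 0.700). Neither passed the test, and the median of the histidine members was -0.21.

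Arginine genes spread on both sides of 0. CPA1 (YOR303W), which supplies carbamoyl phosphate, had a mean of 0.15 ± 0.20 (SD, n = 4). ARG4 (YHR018C), argininosuccinate lyase, had 0.16 ± 0.30, ARG8 (YOL140W), acetylornithine aminotransferase, -0.17 ± 0.28, and ARG5,6 (YER069W), the precursor of the enzymes that phosphorylate and reduce acetylglutamate, -0.12 ± 0.06. Of these only ARG5,6 kept its side on all 4 arrays. ARG1 (YOL058W), argininosuccinate synthetase, was measured on 3 arrays and disagreed most with itself, with -0.20, 0.87 and -0.67 on arrays 1 to 3. In a fit of the 5203 genes with at least 3 values its adjusted p was 0.945. ARG3 (YJL088W), ornithine carbamoyltransferase, had a value on 0 arrays.

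Of the lysine genes 0 were called (limma; 0 also at an unadjusted p under 0.05). LYS9 (YNR050C) and LYS1 (YIR034C), which carry out the saccharopine steps at the end of the pathway, had means of -0.27 ± 0.13 and 0.04 ± 0.22 (SD, n = 4). LYS12 (YIL094C), homoisocitrate dehydrogenase, had -0.18, -0.14, -0.26 and -0.13 on arrays 1 to 4, the smallest SD of all members (0.058). LYS4 (YDR234W), homoaconitase, had the largest SD of the pathway (0.42), with -0.61 on array 1 and 0.42 on array 4 around a mean of -0.05. The homocitrate synthase genes LYS20 (YDL182W) and LYS21 (YDL131W), which commit carbon to the pathway, had 0.06 ± 0.18 and -0.08 ± 0.18. The pathway median was -0.06, next to -0.06 over all tested genes. It ran from -0.121 (without array 4) to -0.016 (without array 1) with 1 array left out, and was -0.139 with the length trend removed.

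In the leucine branch the members LEU4 and LEU1, for consecutive steps, had means on opposite sides, and neither was called. Outside the set, LEU9, an isozyme gene of LEU4, and LEU2 had means of -0.16 and -0.13, on the side of LEU1. LEU9 is named after its values were seen. LEU4 (YNL104C), isopropylmalate synthase, had 0.28, 0.30, 0.33 and 0.60 on arrays 1 to 4, and LEU1 (YGL009C), isopropylmalate isomerase, -0.68, -0.54, 0.15 and -0.37. LEU4 was on the HSP12 side on all arrays, while LEU1 left the TIP1 side on array 3. The means were 0.38 ± 0.15 for LEU4 (adjusted p = 0.620, limma) and -0.36 ± 0.37 for LEU1 (adjusted p = 0.645; SD, n = 4 each). Without array 3 LEU1 had a mean of -0.53 and an adjusted p of 0.466.

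Among isoleucine and valine genes some differed between arrays and some between enzymes. ILV2 (YMR108W), the catalytic subunit of acetolactate synthase, had -0.33, -0.29, 0.24 and 0.41 on arrays 1 to 4. ILV5 (YLR355C), acetohydroxyacid reductoisomerase, had -0.28, -0.40, 0.31 and 0.06. Both were on the TIP1 side on arrays 1 and 2 and on the HSP12 side on arrays 3 and 4, so that their means were 0.01 and -0.08. ILV3 (YJR016C), dihydroxyacid dehydratase, kept the TIP1 side with -0.43, -0.51, -0.08 and -0.28 and a mean of -0.32 ± 0.19 (adjusted p = 0.687, limma). ILV6 (YCL009C), the regulatory subunit of acetolactate synthase, and ILV1 (YER086W), threonine deaminase, had means of -0.01 ± 0.36 and -0.05 ± 0.21.

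The aromatic pathway held the extremes of the set. ARO1 (YDR127W), the multifunctional enzyme of the shikimate steps, had -0.02, 0.70, -0.11 and 1.02 on arrays 1 to 4. It was far on the HSP12 side on arrays 2 and 4, where the treated RNA carried Cy5, and near 0 on arrays 1 and 3, where it carried Cy3. The mean of 0.40 ± 0.55 (SD, n = 4) therefore joins unlike values (adjusted p = 0.590, limma), and it was 0.57 without array 3 (adjusted p = 0.177). TRP5 (YGL026C), tryptophan synthase, had 0.11, -0.09, 0.80 and 0.69, high on arrays 3 and 4 only, with a mean of 0.38 ± 0.44, or 0.23 without array 3. ARO2 (YGL148W), chorismate synthase, had -0.45, -0.15, -0.23 and -0.65 and lay on the TIP1 side throughout, with a mean of -0.37 ± 0.23 (adjusted p = 0.621). Of the remaining 5 genes, ARO3 (YDR035W) and ARO4 (YBR249C), which encode the DAHP synthases at the pathway entry, and TRP2 (YER090W), TRP3 (YKL211C) and TRP4 (YDR354W) of the tryptophan branch, the means lay between -0.19 and 0.05.

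Threonine, serine and asparagine genes likewise gave no call. THR1 (YHR025W), homoserine kinase, had the largest scatter of the tested members, with -0.63, 0.23, -0.18 and 0.81 on arrays 1 to 4 around 0.06 ± 0.61 (mean ± SD, n = 4). It was on the HSP12 side where the treated RNA carried Cy5 and on the TIP1 side where it carried Cy3. THR4 (YCR053W), threonine synthase, kept the TIP1 side with a mean of -0.28 ± 0.19. HOM3 (YER052C), aspartate kinase, and HOM2 (YDR158W), aspartate semialdehyde dehydrogenase, had -0.18 ± 0.36 and -0.16 ± 0.15. SER1 (YOR184W), phosphoserine aminotransferase, had -0.23 ± 0.32.

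Isozyme pairs with both genes in the set lay close together. LEU4 and its isozyme gene LEU9, which is outside the set, lay apart, with means of 0.38 ± 0.15 and -0.16 ± 0.35. SER3 (YER081W) and SER33 (YIL074C), the phosphoglycerate dehydrogenases, had means of 0.13 and 0.15, and the difference of SER3 minus SER33 was -0.02 ± 0.11 (SD, n = 4). The difference was -0.17 ± 0.23 for the asparagine synthetase genes, ASN1 (YPR145W) minus ASN2 (YGR124W), 0.14 ± 0.23 for LYS20 minus LYS21 and -0.04 ± 0.18 for ARO3 minus ARO4. Each of these was smaller than its SD, and no test of the differences was run. No source used here says what the spots consist of, and near-identical copies may share signal. ASN1 and ASN2 had their positive values on the same arrays, 3 (0.42 and 0.41) and 4 (0.21 and 0.19). The subunit genes of acetolactate synthase differed by 0.02 ± 0.40 for ILV2 minus ILV6. HIS7 and ARO4 are neighbours in the RefSeq gene order and differed by -0.16 ± 0.36.

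Some members had a dye component larger than their mean. The same deposited sign on all 4 arrays is a sign that went with the dye, since the treated RNA changed dyes. Scatter alone can also give it. Such a sign was held by LYS1, LYS21, ILV6, TRP4, ARO1 and THR1. These are 6 of 40 or 15%, near the 12.1% of all tested genes. The mean deposited value, which is the dye component, was -0.46 for both ARO1 and THR1 and -0.30 for both TRP4 and ILV6, larger in size than their mean toward either side. Over the 40 members 41.4% of the summed squares of the values lay in the mean of the turned arrays, 25.1% in the dye component and 26.0% in the difference between arrays 3 and 4 on one hand and arrays 1 and 2 on the other. Over all tested genes these shares were 57.8%, 15.0% and 21.0%.

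That difference between array pairs moved with the length of the coding span. Spearman's rho between span and the difference was 0.39 over the 40 members and 0.62 over 4578 genes with a span. On single turned arrays 1 to 4, rho with span was 0.005, -0.065, 0.593 and 0.04 over the members. Over the 4578 genes it was -0.013, -0.178, 0.445 and 0.403. Among the members the trend thus lay mainly on array 3, the array with the conflicting label. The points share arrays and spots, and no p is given. ARO1 has the longest span of the members (4767 bases), against a median of 1401 bases for the members and 1218 over all. The means of ARO1 were 0.34 on arrays 1 and 2 and 0.45 on arrays 3 and 4, and its dye component was -0.46. With the length trend removed from each array the median of the members was -0.13, and again 0 of them were called. The part of length in the single values was not tested further.

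**Figure D3:**
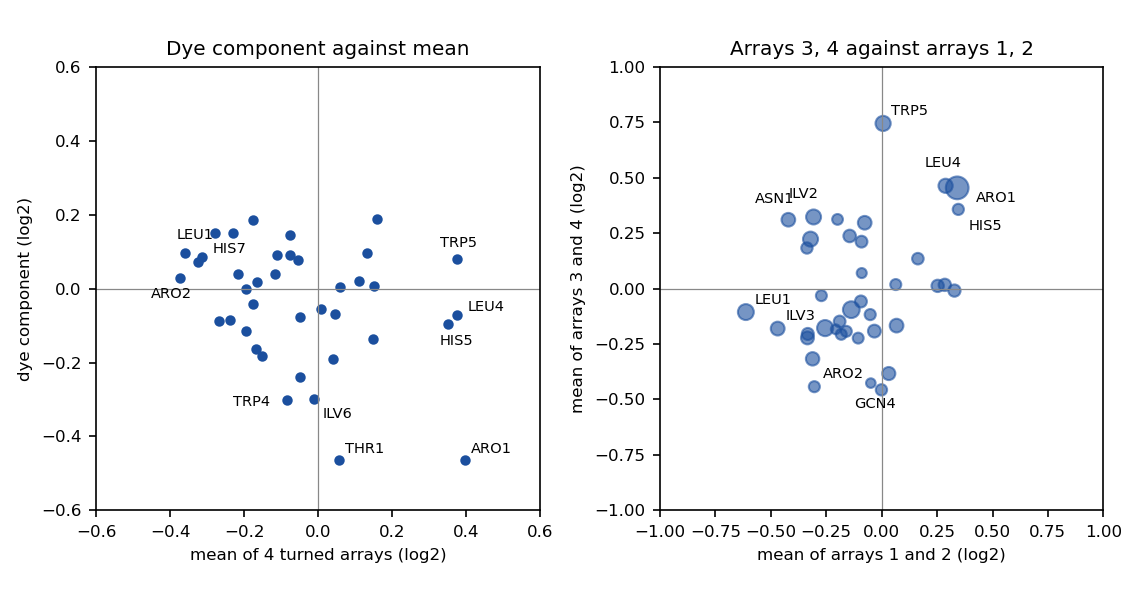
Left, dye component (mean deposited log2 value, y axis) against the mean of the 4 turned arrays (x axis) of 39 of the 40 biosynthesis genes. Right, mean of arrays 3 and 4 (y axis) against mean of arrays 1 and 2 (x axis), with dot area in proportion to the coding span. ARO1 and THR1 stand at a dye component of -0.46, and TRP5 is high on arrays 3 and 4 alone.

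Across arrays the members correlated less than genes at large, which is given as a description over genes that share libraries. Pearson's r between pairs of turned arrays ran from -0.04 (arrays 1 and 4) to 0.47 (arrays 2 and 4) over the 40 members. Over 4788 genes it ran from 0.30 to 0.60. Arrays 2 and 4, where the treated RNA carried Cy5, gave the highest of the 6 Pearson values among the members. Arrays 1 and 3, where the treated RNA carried Cy3, gave 0.19. By Spearman's rho, arrays 1 and 2, of opposite dyes, and arrays 2 and 4 had the same value of 0.391.

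Of 30 tested genes of amino acid synthesis outside the set 1 was called, or 3.33%, next to 4.55% of all tested genes, and 2 had an unadjusted p under 0.05. The called gene was ARO9 (YHR137W), an aromatic aminotransferase that works mainly in the breakdown of aromatic amino acids. It had 0.82, 1.09, 1.04 and 1.08 on arrays 1 to 4, all close together on the HSP12 side. The mean was 1.01 ± 0.12 (SD, n = 4), or 2.01-fold (adjusted p = 0.00138, limma), and the adjusted p stayed at or under 0.0492 with any 1 array left out (0.00578 without array 3). GLN1 (YPR035W), glutamine synthetase, was the farthest on the TIP1 side, with -0.35, -0.89, -0.49 and -0.80. Its mean of -0.63 ± 0.25 did not pass the test (adjusted p = 0.154). SER2 (YGR208W), phosphoserine phosphatase, had -0.46 ± 0.22 (adjusted p = 0.475). The median of the 30 genes was -0.13.

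Among genes that break amino acids down, GDH2 changed, on the HSP12 side. Of 6 listed genes for arginine, proline, serine and glutamate breakdown 5 were tested, all 5 had a mean on that side, and 1 passed the test. The passing gene is 20% of those tested, next to 4.55% of all tested genes. Over all tested genes 2035 of 4788 had a mean on the HSP12 side. GDH2 (YDL215C), the glutamate dehydrogenase that releases ammonium, had 1.26, 1.07, 1.38 and 1.54 on arrays 1 to 4. The values were even over dyes and arrays, with a mean of 1.31 ± 0.20 (SD, n = 4), or 2.49-fold (adjusted p = 7.88e-06, limma). It was called with any 1 array left out (adjusted p from 4.05e-05 to 0.0310, the lowest without array 3).

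Of the proline genes, PUT1 and PUT4 lacked values on some arrays. PUT2 (YHR037W), which oxidises the proline product to glutamate, had 0.30, 0.31, 0.68 and 0.73 and did not pass (mean 0.51 ± 0.23, adjusted p = 0.371, limma). PUT1 (YLR142W), proline oxidase, had a value on arrays 1 and 4 only, 2.01 and 3.30, and was not tested. PUT4 (YOR348C), the proline permease, had 2.20, 5.13 and 3.16 on arrays 1, 2 and 4 and none on array 3. In the fit of genes with at least 3 values PUT4 had a mean of 3.50 ± 1.50 (SD, n = 3; adjusted p = 0.00013, limma). PUT1 and PUT4 are named after their values were seen, as are CAR2 and CHA1.

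The arginine and serine breakdown genes were nearer to 0. CAR1 (YPL111W), arginase, had 0.06, 0.59, 0.17 and 0.62, with a mean of 0.36 ± 0.29 (SD, n = 4; adjusted p = 0.642, limma). CHA1 (YCL064C), the serine and threonine deaminase, had 0.32 ± 0.11, on the HSP12 side on all arrays, and CAR2 (YLR438W), ornithine aminotransferase, 0.28 ± 0.50, negative on arrays 1 and 3. The median of the 5 tested breakdown genes was 0.36, that of the 40 biosynthesis genes -0.08. The difference between these lists was not tested.

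Among 12 tested pathway regulators 1 changed, or 8.33%, next to 4.55% of all tested genes. GAT1 (YFL021W), a GATA activator of genes for poor nitrogen sources, had 0.17, 0.92, 1.39 and 1.35 on arrays 1 to 4, lowest on array 1. Its mean was 0.96 ± 0.57 (SD, n = 4; adjusted p = 0.003, limma), with 0.54 on arrays 1 and 2 and 1.37 on arrays 3 and 4. The call was lost without array 1 (mean 1.22, adjusted p = 0.0516), without array 2 (mean 0.97, adjusted p = 0.244) and without array 4 (mean 0.83, adjusted p = 0.233). It was also lost after removal of the length trend (adjusted p = 0.101). Without array 3 it held (mean 0.81, adjusted p = 0.0137). BAS1, an activator of histidine and purine genes, and STP2, an activator of permease genes, had means of -0.29 ± 0.15 and 0.19 ± 0.20.

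Purine genes and amino acid permeases, many of them also under Gcn4 or Bas1, had 0 of 12 and 0 of 17 tested members called (limma), with 2 and 1 at an unadjusted p under 0.05. Of all tested genes 4.55% were called and 11.5% had an unadjusted p under 0.05. In the purine list the median was -0.20. ADE5,7 had -0.29, -0.21, 1.39 and 1.31 on arrays 1 to 4, wide apart between arrays 1 and 2 and arrays 3 and 4. ADE16 and ADE13 had means of -0.53 ± 0.38 and -0.47 ± 0.65. The permeases had a median of 0.11, with -0.11 on arrays 1 and 2 and 0.20 on arrays 3 and 4. PUT4, described above, is on the permease list but lacked a value on array 3 and is not among the 17. In the fit of genes with at least 3 values PUT4 was called (adjusted p = 0.00013, limma). GNP1, a glutamine permease gene, had 0.09, -0.03, 1.08 and 1.12 and a mean of 0.56 ± 0.62 (adjusted p = 0.259, limma). MMP1, the S-methylmethionine permease gene, and SSY1, the plasma membrane amino acid sensor gene, had -0.36 ± 0.24 and 0.32 ± 0.27.

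**Figure D4:**
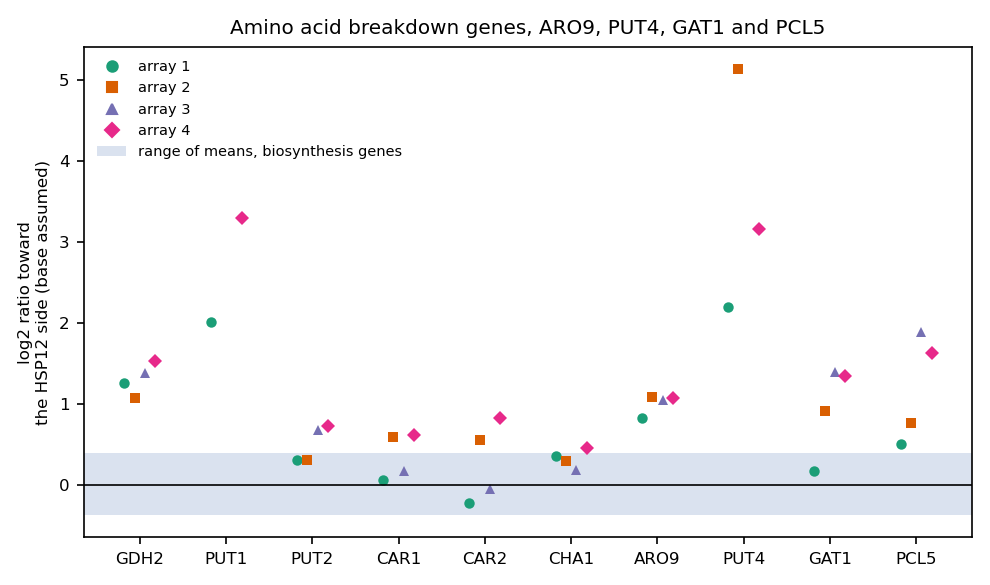
Log2 ratio toward the HSP12 side (y axis) on arrays 1 to 4 (symbols) for the amino acid breakdown genes, ARO9, PUT4, GAT1 and PCL5 (x axis). The blue band is the range of the means of the 40 biosynthesis genes, -0.37 to 0.40. GDH2, ARO9 and PCL5 lie above it on all 4 arrays, and PUT1 and PUT4 on each array that holds a value.

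Genes that laboratory strains often lack as markers were looked at since the strain is not given. HIS3, LEU2, LYS2, TRP1, URA3 and ADE2 had a value on all 4 arrays and MET17 on 0. None of the 6 was called (limma; also 0 at an unadjusted p under 0.05), and TRP1, HIS3 and LYS2 had means of -0.32 ± 0.42, -0.30 ± 0.31 and 0.24 ± 0.47 (SD, n = 4). The shares over all tested genes were 4.55% called and 11.5% at an unadjusted p under 0.05. Without intensities it was not tested whether the spots of these marker genes carry signal of the gene.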

How the data were processed

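The deposited table holds log2 ratios (base assumed, as the authors' base is not stated) of the 2 channels of 4 arrays. Per the labels' protocols, dye-labelled dUTP (Cy5 or Cy3) was built into cDNA from total RNA. No source used here gives the background correction, normalization, spot filter or numerator, and no centring was added. Depth does not apply, and the number of arrays limits the precision. The medians of the deposited log2 ratios were -0.02, 0.05, -0.10 and 0.02 on arrays 1 to 4, and 5402, 5434, 5201 and 4931 reading frames held a value.

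Of 6209 rows 2 control spots were left out. Names came from the RefSeq table of assembly R64 (5654 by locus tag, 23 by synonym, 530 unmatched). Arrays of a culture were averaged, and limma (3.58.1, R 4.3.3) was fitted for both pairings the dye swap allows, arrays 1 with 2 and 3 with 4, and 1 with 4 and 2 with 3. The larger of both p-values per gene was kept and adjusted by Benjamini-Hochberg over 4788 genes, with calls at 0.05. SDs are over 4 arrays, which mix cultures and dyes, and n = 4 counts arrays of 2 cultures. The fit was also run on simulated data with changes added to noise taken from these arrays. There the error of each mean was drawn from the dye component of another gene. That run therefore cannot check how the fit handles differences between cultures.

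The biosynthesis genes and the 7 other lists, written from general knowledge, were chosen with earlier results of these data known. Named besides the biosynthesis genes were list genes that were called and the 3 largest means of each list. Others are marked above as named after their values were seen. The values of 1 biosynthesis gene are not reported here singly. No sequences were used.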

Additional observations from a re-analysis of the deposited data

Results flagged for a closer look

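Of 68 genes examined with 4 values, 40 biosynthesis genes and 28 of the other genes named here, 1 had an array far from the rest. LEU4 had 0.60 on array 4, while arrays 1 to 3 lay between 0.28 and 0.33. Chance sets about 1 in 20 such groups of 4 apart. All 4 values of LEU4 were on the HSP12 side, and its mean without array 4 was 0.30.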

How the results depend on the processing

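The count of 0 called biosynthesis genes held under 12 of 13 alternatives. Among these, arrays 1 with 2 and 3 with 4 taken alone gave the 40 genes the same p-values as the main fit. That alternative is therefore no separate check. The exception to the count of 0 took arrays 1 with 4 and 2 with 3 as cultures, alone. It called 8 of the 40 genes, 4 on the HSP12 side (HIS5, LEU4, TRP5 and ARO1) and 4 on the TIP1 side (HIS7, LEU1, ILV3 and ARO2), or 20%. It called 1415 or 29.6% of all tested genes, 14.5% and 15% on those sides, so that the share of the biosynthesis genes was below that of all genes. The prior variance there was 0.0224 against 0.119 in the other pairing. That fit called 26 of the other list genes in place of 4. With the length trend removed that count was 2, and it ran from 2 to 4 with 1 array left out. Calls over all genes were 218, against 117 with the length trend removed, and 76, 105 and 143 without array 1, 2 and 4.

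The median of the biosynthesis genes was -0.026 after centring each array, -0.13 with the length trend removed and -0.125 to -0.017 with 1 array left out. The arginine median of 0.11 was -0.059 with the length trend removed, and ran from -0.040 to 0.136 with 1 array left out. The threonine median ran from -0.245 to -0.164. The causes were not tested. Of the 40 genes, 3 changed side with centring, 4 with the length trend removed, and 7 without array 4. No paired analysis was possible because the study has 1 group and each array already sets treated against untreated RNA of a culture. A filter on dim spots was not run, since no intensities were used.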
